A study of Mus musculus with 77 samples.

Results

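The regions described here are the enhancers assigned to Id1 and Id2, 2 genes that encode inhibitor of DNA binding proteins. They were taken as every row of the authors' deposited enhancer table whose gene column reads Id1 or Id2, which gave 49 of 44002 enhancers, 10 of Id1 and 39 of Id2. The enhancers were selected on the table's gene assignment, but both genes were picked with earlier results of these data known. Since which of the H3K27ac, H3K4me1, PU.1, CEBPA and expression values led to that is not recorded, all of them count as used and are given as a description. The table covers wild type Lin-, Sca-1+, ckit cells (LSK, the compartment that holds the blood stem cells and multipotent progenitors), preGM (an early myeloid progenitor, Lin-, Sca-1-, ckit+, CD150-, CD105-), GMP (the granulocyte and monocyte progenitor, Lin-, Sca-1-, ckit+, CD150-, FcgRII/III+) and granulocytes (Mac1+Gr-1+), all sorted from mouse bone marrow. It also covers preGM of mice labelled CEBPA KO, in which Cebpa, the gene of the myeloid transcription factor C/EBP alpha, was targeted, set against wild type preGM. How and in which cells Cebpa was deleted, and the age and strain of the mice, are not given in the sources used here.

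Each value is a ChIP-seq signal of H3K27ac (a histone mark of active enhancers), H3K4me1 (a mark of enhancers in general), the transcription factor PU.1 or C/EBP alpha (written CEBPA below), or an expression value of the gene. The table holds 1 pooled value per enhancer and group, from 2 listed ChIP libraries a group and 30 in all, so no spread between replicates could be computed and nothing below was tested. Differences are log2 ratios with a small constant added to both values, and an enhancer was counted as higher or lower when the ratio reached 2-fold. The granulocyte and LSK marker lists followed the labels. Summed expression of 9 of 9 granulocyte genes was 352 in LSK, 1917 in preGM, 4512 in GMP and 57814 in granulocytes. That of 6 of 6 LSK genes was 9721, 7951, 1782 and 372 in the same order. Markers of some other lineages were also higher in granulocytes than in GMP. The T and NK cell genes found summed to 219 in granulocytes and 40.1 in GMP, and megakaryocyte genes to 324 and 199. Klf1, an erythroid gene, had 167 and 64.1, and the B cell genes found summed to 49.6 and 37.4. The monocyte genes found were lower, at 2439 and 12358. Whether other cells add to the granulocyte values was not tested. Cebpa itself, the gene targeted in the KO, was 48.3 in KO preGM and 208 in wild type preGM.

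ID proteins have a helix-loop-helix domain without the basic stretch that contacts DNA, so they pair with E proteins such as the products of Tcf3, Tcf4 and Tcf12 and keep them off DNA. Id1 is a classic target of BMP signalling through SMAD proteins and has been studied in early myeloid progenitors, while Id2 is best known for its part in natural killer cells, innate lymphoid cells and dendritic cells. PU.1 and C/EBP alpha are the main DNA-binding regulators of granulocyte and monocyte progenitors, and both often bind the same myeloid enhancers.

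The enhancers of Id1 and Id2 lie on different chromosomes and differ in layout. The 10 Id1 enhancers span 6.716 kb of chromosome 2 (positions 152561875 to 152568591 of build mm9, as the table gives them) and are 23 to 255 bp wide, with a median of 113.5 bp. The 39 Id2 enhancers span 339.093 kb of chromosome 12 (25739776 to 26078869, mm9) and are 35 to 740 bp wide, with a median of 155 bp. Of the 10096 genes in the table, 23 had more enhancers than Id2 and 975 had more than Id1. The enhancers are numbered below by position within each gene. No mm9 genome or annotation was used here, so whether an enhancer is exonic, intronic or intergenic is not given and their own sequence is not shown.

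RefSeq's promoter table matched Id2. The 250 bases before its annotated start are shown because Id2 expression differed over 2-fold between stages (chr12:25096093-25096342, GRCm38.p6, minus strand, printed 5′ to 3′). Capitals mark, in order, a GC box of the kind that SMAD proteins bind, an E box, and 3 CCAAT boxes, the first of them read on the other strand.
Id2 promoter: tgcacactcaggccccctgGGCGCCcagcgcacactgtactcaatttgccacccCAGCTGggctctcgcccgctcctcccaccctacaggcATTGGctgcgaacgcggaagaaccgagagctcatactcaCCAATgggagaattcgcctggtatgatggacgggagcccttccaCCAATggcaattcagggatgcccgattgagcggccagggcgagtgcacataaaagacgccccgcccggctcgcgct
Both strands of this window were searched for 5 motifs, each also counted in all 32851 promoter windows of the same length. The E box CANNTG matched 1 time and is held by 66.2% of windows. GGCGCC matched 1 time (9.59% of windows) and CCAAT 3 times (33.8% of windows). The C/EBP motif TTGCNNAA (9.56% of windows) and the PU.1 core GAGGAA (23.3% of windows) had 0 matches, which says only that these letters are not in this window.

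The table's own stage classes put Id2 mainly in granulocytes. Of the 39 Id2 enhancers, 18 (46.2%) are classed in granulocytes only, against 21.2% of all enhancers. Any class that includes granulocytes holds 28 Id2 enhancers (71.8%), against 42.5% of all. The Id1 enhancers are classed in preGM, GMP or granulocytes: 1 of 10 in granulocytes only, 6 of 10 in a class with granulocytes and 0 of 10 in a class with LSK, against 4 of 39 for Id2 and 15.3% of all enhancers for LSK. The table's class of bound factors names CEBPA at 5 of 10 Id1 enhancers, 9 of 39 Id2 enhancers (23.1%) and 21.5% of all, and PU.1 at 5 of 10, 10 of 39 (25.6%) and 28.3%. Both factors are named at 3 Id1 enhancers and 3 Id2 enhancers, and neither at 3 and 23. These classes are the authors' and rest on the same libraries as the signals, so the signals below are no independent check of them.

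Expression of Id2 was higher in each later stage, and that of Id1 was low and nearly level. The unit of the expression columns is not stated, so ratios compare each gene with itself alone. Id2 expression was 50.9 in LSK, 62.7 in preGM, 130 in GMP and 709 in granulocytes. Granulocytes had 5.44 times the GMP value (log2 ratio 2.21 with the added constant, 2.44 without it), and 12% of the 10096 genes were at least 2-fold higher in that comparison. GMP had 2.08 times the preGM value, a log2 ratio of 0.79 with the constant, which is under the 2-fold line that 3.11% of genes passed upwards and 3.19% downwards, and 1.06 without it. Id1 expression was 16.4 in LSK, 19.1 in preGM, 17.9 in GMP and 27.8 in granulocytes, with no ratio between neighbouring stages above 1.55. In preGM over LSK neither gene passed 2-fold (1.88% of genes were higher and 0.891% lower). In such bulk samples, fewer cells of a type and less RNA per cell cannot be told apart.

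**Figure D1:**
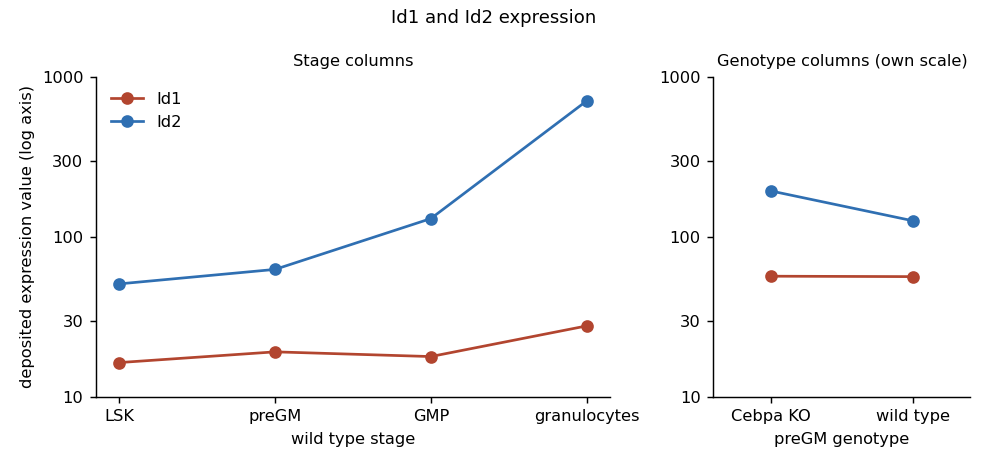
Deposited expression value (log axis, unit not stated) of Id1 and Id2, 1 pooled value per point, in 4 wild type stages (left) and in Cebpa KO and wild type preGM (right, columns on their own scale). Id2 reaches 709 in granulocytes, against 130 in GMP, while Id1 stays between 16.4 and 27.8 over the stages.

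The KO columns and their wild type preGM partner form a second expression set on its own scale: wild type preGM has 126 for Id2 and 56.5 for Id1 there, against 62.7 and 19.1 in the stage set. Whether these columns come from the listed RNA libraries is not stated. Within the second set Id2 was 194 in KO preGM and 126 in wild type preGM, a ratio of 1.54 and a log2 ratio of 0.43 with the added constant. That ratio was higher than that of 98.2% of genes, but it did not reach 2-fold, which 0.188% of genes did upwards and 0.307% downwards. Id1 was 56.8 in KO preGM and 56.5 in wild type preGM. Myeloid marker lists were lower in the KO: the 4 of 4 GMP genes (Mpo, Elane, Prtn3 and Ctsg) summed to 4714 in KO preGM and 9107 in wild type preGM, the 6 of 7 monocyte genes found to 351 and 1121, and the 9 of 9 granulocyte genes to 378 and 1585. The 6 of 6 LSK genes summed to 3289 and 4950. Klf1, the 1 of 4 erythroid genes found, had 215 and 204, and the 2 of 4 B cell genes found summed to 92.2 and 86.5. The 3 of 3 megakaryocyte genes summed to 530 and 422, and the 3 genes found of the 5 for T and NK cells to 187 and 151. No marker was listed at 0, and the part of this shift in the Id2 value was not tested.

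H3K27ac at the Id1 enhancers was higher at each step after preGM and exceeded the median enhancer only in granulocytes. Its median over the 10 enhancers was 0.723 in LSK, 0.769 in preGM, 1.15 in GMP and 2.07 in granulocytes, beside 0.936, 0.908, 1.20 and 1.48 over all enhancers. The median of all enhancers thus moved by a log2 ratio of 0.29 in GMP over preGM and 0.14 in granulocytes over GMP, and the ratios of Id1 and Id2 should be read against that. Granulocytes over GMP gave a median log2 ratio of 0.55 at Id1, with 9 of 10 enhancers higher, beside 57.9% of all, and a summed signal of 24.2 in granulocytes and 14.2 in GMP. GMP over preGM gave 0.40, with a summed signal of 14.2 in GMP and 8.52 in preGM.

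Single Id1 enhancers differed in course. Enhancer 1 had an H3K27ac signal of 1.03 in LSK, 0.861 in preGM, 1.05 in GMP and 4.89 in granulocytes, and it was the 1 Id1 enhancer at least 2-fold higher in granulocytes than in GMP (log2 ratio 1.68; 14.1% of all enhancers were). Enhancer 9 had 1.06, 1.56, 3.19 and 4.37 in the same order, higher at each stage. Enhancers 5 and 6 had 2.01 and 2.13 in granulocytes, against 1.87 and 2.10 in GMP, so they were level between these stages. Enhancer 2 was the 1 Id1 enhancer at least 2-fold higher in GMP (1.13) than in preGM (0.181), as 9.21% of all enhancers were. Enhancers 1 and 3 beside it show no such step, and the value of 0.181 is the lowest of any Id1 enhancer in that mark.

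At Id2 the H3K27ac median was below that of all enhancers in every stage: 0.676 in LSK, 0.611 in preGM, 0.803 in GMP and 1.45 in granulocytes. Granulocytes over GMP gave a median log2 ratio of 0.33, with 33 of 39 enhancers higher and a summed signal of 64.0 in granulocytes and 37.5 in GMP. In that comparison 9 of 39 Id2 enhancers were higher by 2-fold or more, against 14.1% of all enhancers, and 0 lower, against 6.05%. The count of 9 was 2 with quantile normalization and 0 with a constant 4 times larger. Among enhancers classed in granulocytes only, 7 of 18 at Id2 were called (median log2 ratio 0.62), against 3111 of 9324 over all (0.71). In the other stage classes it was 2 of 21 at Id2 (0.14), against 3077 of 34678 (0.02). Within the granulocytes-only class the Id2 median was thus no larger than that of all enhancers. GMP over preGM gave 0.24 at Id2, which is -0.06 after the median of all enhancers is subtracted, with 1 enhancer at least 2-fold higher (9.21% of all) and 1 lower (0.411% of all). In preGM over LSK neither gene had an enhancer past 2-fold in H3K27ac (0.72% higher and 0.364% lower over all).

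The median H3K4me1 signal was also highest in granulocytes at both genes, by a larger step at Id2. Its median at Id2 was 2.83 in LSK, 2.47 in preGM, 3.32 in GMP and 6.44 in granulocytes, and at Id1 4.33, 3.67, 5.0 and 7.44. Over all enhancers it was 3.26, 3.07, 3.79 and 5.41, with a shift of 0.32 in granulocytes over GMP. Granulocytes over GMP gave a median log2 ratio of 0.71 at Id2 (0.38 after that shift is subtracted) and 0.41 at Id1 (0.08 after it). The direction turned at the Id1 enhancer with the highest mean H3K4me1, enhancer 1, with 6.37 in granulocytes and 7.21 in GMP (log2 ratio -0.14) and its highest value, 10.2, in LSK. At least 2-fold higher were 9 of 39 Id2 enhancers and 0 of 10 Id1 enhancers, against 9.69% of all, and 0 of either gene were lower, against 2.81%. That Id2 count was 3 after the shift was subtracted and 15 with a constant 4 times smaller, so it depends on the scale. All 9 are among the 18 Id2 enhancers classed in granulocytes only (median 0.99), against 3482 of 9324 over all of that class (0.86). In the other stage classes it was 0 of 21 at Id2, against 783 of 34678. In preGM over LSK neither gene had an H3K4me1 call, nor did nearly any enhancer (0.00227% higher and 0.00682% lower over all). In GMP over preGM neither gene had one either (0.855% higher and 0.00227% lower over all).

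**Figure D2:**
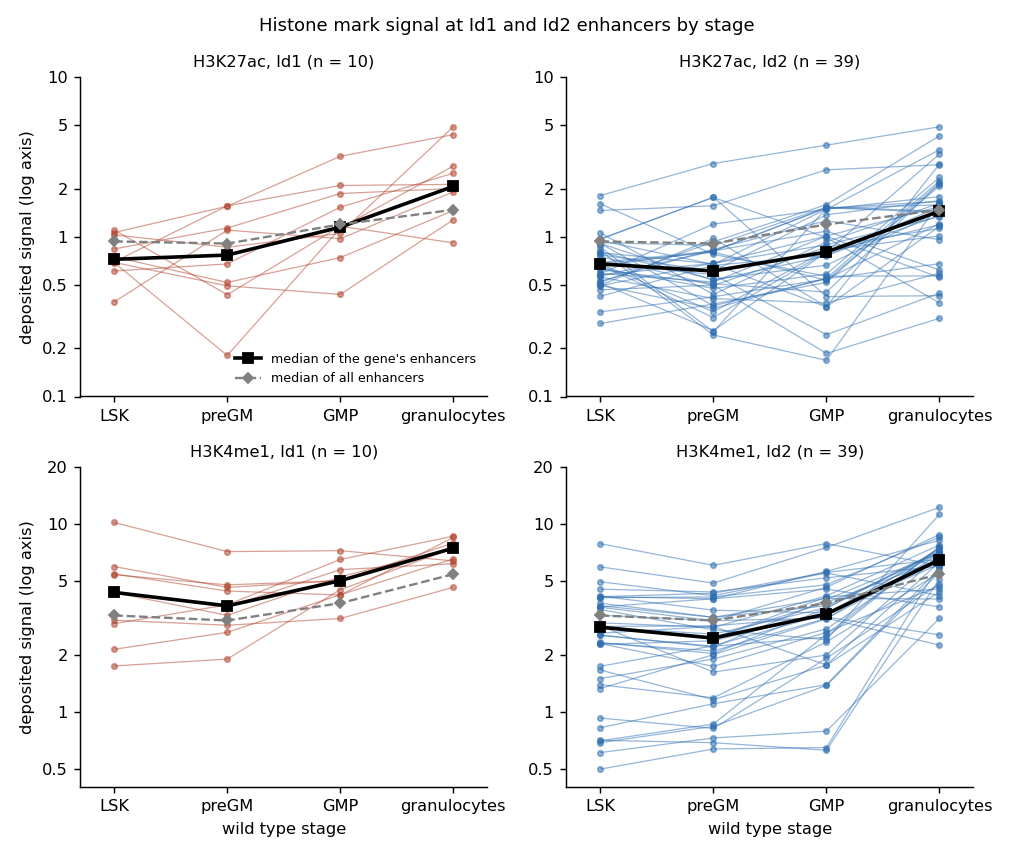
Deposited H3K27ac (top) and H3K4me1 (bottom) signal on a log axis at each Id1 (left) and Id2 (right) enhancer in 4 wild type stages. Thin lines are single enhancers, squares the median of the gene's enhancers and diamonds the median of all 44002 enhancers. Id1 and Id2 medians are highest in granulocytes, at 2.07 and 1.45 for H3K27ac.

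The step from GMP to granulocytes differed along the 339.093 kb of Id2. Split after enhancer 22, where 32.6 kb hold no Id2 enhancer, the first 22 and the last 17 enhancers differ in course; the split was chosen after the values were seen. All 9 Id2 enhancers at least 2-fold higher in H3K27ac in granulocytes than in GMP are among the last 17, and 8 of the 9 for H3K4me1. The last 17 had a median H3K27ac of 1.79 in granulocytes and 0.765 in GMP, with 13 of them classed in granulocytes only. The first 22 had 1.38 in granulocytes and 0.959 in GMP, with 5 of them so classed. The stretches thus differ in stage class too, and they were not compared within a class. For H3K4me1 the last 17 had a median of 5.97 in granulocytes and 2.01 in GMP, and the first 22 had 6.74 and 3.63, so the last 17 had the lower level in both stages and the larger step.

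The largest Id2 steps in H3K27ac lie near the far end. Enhancer 35 (chr12 26004651 to 26005175) had an H3K27ac signal of 2.85 in granulocytes and 0.365 in GMP, and 0.498 and 0.977 in LSK and preGM. Enhancer 38 (26020201 to 26020740) had 3.30 in granulocytes and 0.803 in GMP, and enhancer 37 (26015713 to 26016406) had 1.64 and 0.168. Enhancer 34 (26001471 to 26001739) had the largest H3K4me1 step, with 6.07 in granulocytes and 0.647 in GMP, while its H3K27ac was 1.19 and 0.802. Enhancers 26, 27, 38 and 39 were at least 2-fold higher in both marks, and 14 of the 39 in at least 1. Over all enhancers 14.1% were so for H3K27ac and 9.69% for H3K4me1. The shares for both marks or at least 1 were not computed, so these 2 counts have no background. The 9 enhancers numbered 30 to 38, 8 of which are classed in granulocytes only, had H3K4me1 between 0.497 and 2.87 in LSK and none of them is in the PU.1 class.

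The marks parted at a few Id2 enhancers. Enhancers 5 and 6 had more H3K4me1 in granulocytes (8.79 and 6.49) than in GMP (4.61 and 3.15), yet less H3K27ac in granulocytes (0.557 and 0.385) than in GMP (1.01 and 0.989). More H3K4me1 with less H3K27ac in granulocytes was seen at 4 of the 39 Id2 enhancers, the others being 14 and 22. Over all enhancers 68.2% had more H3K4me1 and 57.9% more H3K27ac in granulocytes than in GMP. The share of all enhancers where the marks parted was not computed, so the count of 4 does not set Id2 apart. Enhancer 4, which lies next to enhancer 5, had an H3K27ac signal of 3.51 in granulocytes, against 1.49 in GMP, with H3K4me1 of 6.0 and 7.87. Enhancer 16 (25874071 to 25874106) was the strongest Id2 enhancer in H3K27ac at every stage, with 1.81 in LSK, 2.88 in preGM, 3.75 in GMP and 4.89 in granulocytes; it is classed in LSK, preGM and GMP and as bound by both factors.

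**Figure D3:**
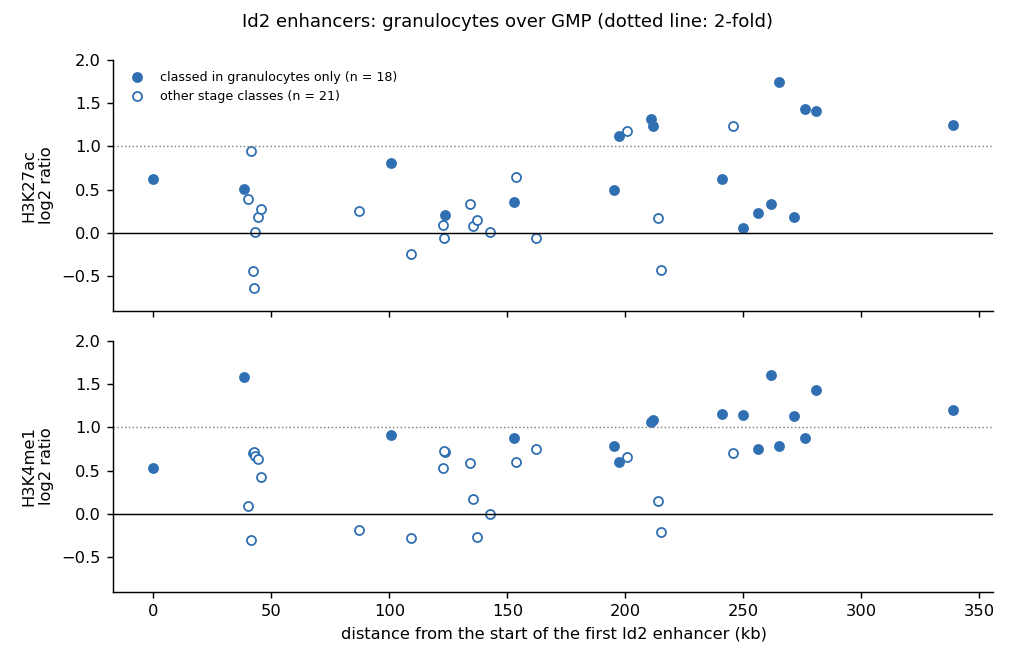
Log2 ratio of H3K27ac (top) and H3K4me1 (bottom) signal in granulocytes over GMP at the 39 Id2 enhancers, by distance in kb from the start of the first; filled points are the 18 classed in granulocytes only. All 9 enhancers past the dotted 2-fold line for H3K27ac are among the last 17.

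Compared with LSK, preGM had more PU.1 at 80% of Id1 enhancers and 74.4% of Id2 enhancers, shares close to the 76.4% of all enhancers, and the median step was larger at Id1. Its median at Id1 was 1.14 in LSK, 2.47 in preGM and 3.07 in GMP, at Id2 0.874, 1.46 and 1.44, and over all enhancers 0.994, 1.34 and 1.25. In preGM over LSK the median log2 ratio was 0.77 at Id1, with 8 of 10 enhancers higher and a summed signal of 30.4 in preGM and 15.7 in LSK. At Id2 it was 0.35, with 29 of 39 higher and a summed signal of 101 in preGM and 71.3 in LSK. The ratio of all enhancers had a median of 0.30, and quantile normalization brought Id1 to 0.17 and turned Id2 to -0.05, so the Id2 direction rests on the scaling.

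At least 2-fold higher PU.1 in preGM than in LSK was found at 1 Id1 enhancer and 3 Id2 enhancers, against 6.56% of all enhancers, and no enhancer of either gene was lower, against 0.0364%. Id1 enhancer 6 had 3.88 in preGM and 1.52 in LSK (log2 ratio 1.08), just past the line, and Id1 enhancer 5 had 7.34 and 3.40 (0.99), just under it. The Id2 enhancers were 14, with 4.71 in preGM and 1.88 in LSK, 15, with 4.86 and 2.02, and 34, with 1.59 and 0.295. Enhancers 14 and 15 adjoin one another and are in both bound classes. After the median of all enhancers was subtracted, 0 of these calls were left at either gene.

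GMP and preGM had similar PU.1 at both genes. GMP over preGM gave a median log2 ratio of 0.12 at Id1, with 7 of 10 enhancers higher in GMP, beside 42.1% of all, and none past 2-fold (0.768% of all were higher). At Id2 it was -0.09 (0.02 with quantile normalization), with 2 enhancers at least 2-fold lower, as 0.775% of all enhancers were. These were enhancer 22, with 3.76 in GMP and 10.4 in preGM, and enhancer 29, with 1.13 and 3.23. The highest PU.1 signal of either gene was at Id2 enhancer 1, the first by position, with 12.4 in LSK, 15.4 in preGM and 13.9 in GMP.

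CEBPA signal in wild type preGM was concentrated on 1 Id1 enhancer. Id1 enhancer 9 (chr2 152567426 to 152567657) had 12.5, and 17 of the 44002 enhancers had more. It was followed at Id1 by enhancers 6 (2.96), 5 (2.88), 7 (1.46) and 8 (1.23), the 5 that the table classes as CEBPA bound, while the other 5 had 0.365 to 0.581. The Id1 median was 0.903, the Id2 median 0.546 and the median of all enhancers 0.534. No Id2 enhancer had more than 1.05, the value of enhancer 15. How the deposited signal depends on an enhancer's width is not stated, so its level between enhancers is a rough guide.

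In Cebpa KO preGM, PU.1 signal was lower than in wild type preGM at 9 of 10 Id1 enhancers and 32 of 39 Id2 enhancers. The median at Id1 was 1.05 in KO preGM and 2.47 in wild type preGM, beside 1.14 in LSK, and the summed signal was 13.5 in KO and 30.4 in wild type. At Id2 the median was 0.922 in KO and 1.46 in wild type, beside 0.874 in LSK, and the summed signal 67.0 in KO and 101 in wild type. The KO comparison and the comparison of preGM with LSK share the wild type preGM value, so their opposite directions are not independent. Over all enhancers 28.3% were higher in the KO, with a median log2 ratio of -0.27.

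The PU.1 difference was larger at Id1 than at the median enhancer. The median log2 ratio of KO over wild type was -0.81 at Id1 (-0.55 after the median of all enhancers is subtracted) and -0.41 at Id2 (-0.14 after it). At least 2-fold lower in the KO were 4 of 10 Id1 enhancers and 0 of 39 Id2 enhancers, against 6.15% of all, and none was 2-fold higher, against 0.0955%. The 4 were enhancer 4, with 2.57 in KO and 6.24 in wild type, enhancer 5, with 2.96 and 7.34, enhancer 6, with 1.11 and 3.88, and enhancer 9, with 1.56 and 4.25. They are 4 of the 5 Id1 enhancers in the PU.1 class. Enhancer 1, the other, had 1.80 in KO and 2.93 in wild type. All 5 lie within the 6.716 kb of Id1, so they may not be separate observations. The count of 4 was 1 after the median of all enhancers was subtracted, 0 with quantile normalization and 0 with a constant 4 times larger.

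Among enhancers in the PU.1 class, Id1 stood below the table's median and Id2 had the same value as it. The 5 of Id1 had a median signal of 1.80 in KO and 4.25 in wild type and a median log2 ratio of -1.16, with 5 of 5 lower. Of the 10 Id2 enhancers in that class 10 were lower in the KO, with a median signal of 2.78 in KO and 4.92 in wild type and a median log2 ratio of -0.69. Of all 12441 enhancers of the class 96.6% were lower, also with -0.69. In the CEBPA class the median was -1.16 at 5 Id1 enhancers, -0.30 at 9 Id2 enhancers and -0.48 at 9449 of all. Id1 enhancer 4, which reached 2-fold on the deposited scale, has a CEBPA signal of 0.409 and is not in the CEBPA class.

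**Figure D4:**
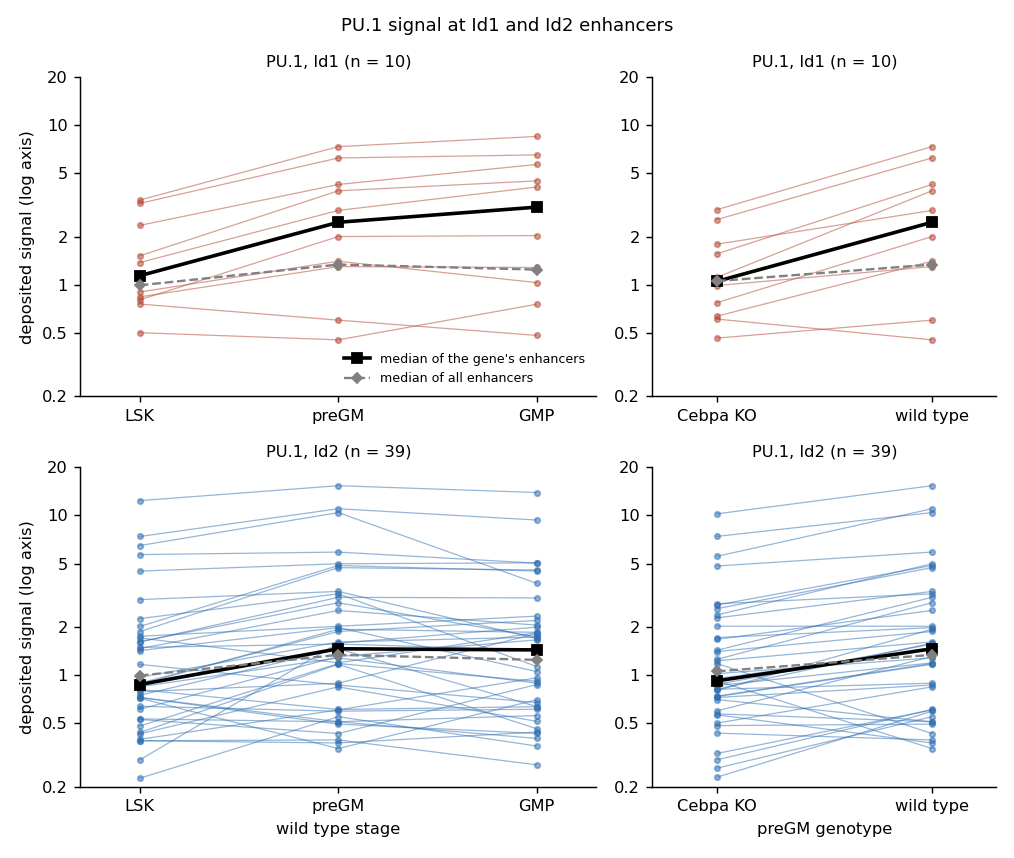
Deposited PU.1 signal (log axis) at each Id1 (top) and Id2 (bottom) enhancer in 3 wild type stages (left) and in Cebpa KO and wild type preGM (right); squares are the median of the gene's enhancers and diamonds that of all enhancers. The Id1 median is 1.05 in KO preGM, against 2.47 in wild type preGM.

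H3K27ac differed less between genotypes. At Id1 it was lower in the KO at 8 of 10 enhancers, with a median of 0.638 in KO and 0.769 in wild type and a median log2 ratio of -0.17, against 0.05 over all enhancers. At the 5 CEBPA-classed Id1 enhancers it was lower in 5 of 5: enhancer 9 had 0.822 in KO and 1.56 in wild type, enhancer 6 had 1.21 and 1.56, enhancer 5 had 0.939 and 1.14, enhancer 7 had 0.811 and 1.10, and enhancer 8 had 0.465 and 0.676. None reached 2-fold, the largest being -0.57 at enhancer 9. These 5 lie within the 6.716 kb of Id1, so they may not be separate observations. At the other 5 Id1 enhancers the median log2 ratio was -0.03, with 3 of 5 lower, and of all 9449 CEBPA-classed enhancers 49.1% were lower, with a median of 0.01. In preGM over LSK, H3K27ac was higher at 5 of the 5 CEBPA-classed Id1 enhancers and at 0 of the other 5. Over the whole table it was higher at 57.4% of CEBPA-classed enhancers and at 51.0% of the others, so the class hardly separated the direction there. The KO comparison and preGM over LSK share the wild type preGM value, so they are not independent.

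At Id2 the H3K27ac median was 0.585 in KO preGM and 0.611 in wild type preGM, and 24 of 39 enhancers were higher in the KO, beside 54.8% of all (median log2 ratio 0.08). With the signals summed the direction turned, at 28.4 in KO and 28.8 in wild type. At least 2-fold lower were 2 Id2 enhancers, as 0.47% of all enhancers were, and 0 were at least 2-fold higher (0.441% of all). They are enhancers 6 and 7, which lie 255 bp apart (chr12 25782464 to 25782618 and 25782873 to 25782957). Enhancer 6 had 0.181 in KO preGM and 1.76 in wild type preGM, and enhancer 7 had 0.383 and 1.77. In the wild type stages H3K27ac of enhancer 7 was 0.964 in LSK, 0.423 in GMP and 0.428 in granulocytes. That of enhancer 6 was 0.972, 0.989 and 0.385 in the same order, so wild type preGM was the highest stage of both. With 255 bp between them, these 2 enhancers may not be separate observations. Neither is in a bound class, and their CEBPA signals of 0.402 and 0.556 are close to the median of all enhancers.

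H3K4me1 showed 0 enhancers of either gene past 2-fold between KO and wild type preGM, against 0% higher and 0.00909% lower of all. Its median at Id1 was 3.14 in KO and 3.67 in wild type, with 5 of 10 enhancers higher in the KO, and at Id2 2.78 in KO and 2.47 in wild type, with 31 of 39 higher (79.5%, beside 72.0% of all enhancers). The median log2 ratio was 0.02 at Id1 and 0.11 at Id2, beside 0.10 over all enhancers, so Id2 moved with the table and Id1 is at -0.09 after that shift is subtracted.

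**Figure D5:**
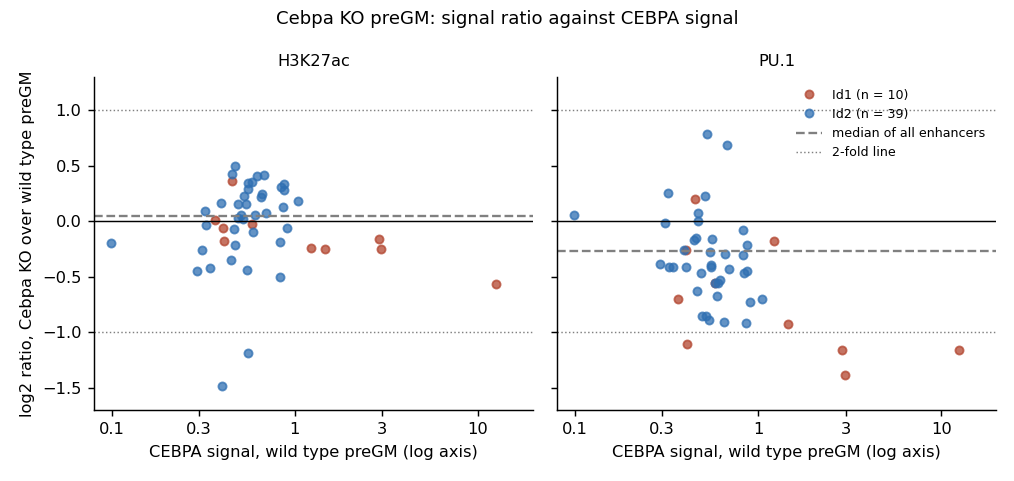
Log2 ratio of signal in Cebpa KO over wild type preGM for H3K27ac (left) and PU.1 (right) against CEBPA signal in wild type preGM (log axis) at the 10 Id1 and 39 Id2 enhancers; dashed lines are the median of all enhancers and dotted lines mark 2-fold. Id1 enhancer 9, with a CEBPA signal of 12.5, has -0.57 for H3K27ac and -1.16 for PU.1.

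Enhancers assigned to other genes within 250 kb give a local comparison, which is not matched for stage class or bound class. Near Id1 lie 13 enhancers of 6 genes (H13, Cox4i2, Bcl2l1, Tpx2, Mylk2 and Foxs1). The median PU.1 log2 ratio of KO over wild type preGM was -0.81 at Id1, against -0.02 at these 13, of which 0 were at least 2-fold lower. In preGM over LSK it was 0.77 at Id1, against 0.08 at the 13. Most of the 13 are outside the PU.1 class, which holds 5 of the 10 Id1 enhancers. In the KO 8 of the 13 had less PU.1 and 5 had more. A Cox4i2 enhancer in the PU.1 class had 7.25 in KO and 14.7 in wild type preGM (log2 ratio -0.96). Near Id2 lie 5 enhancers of 2 genes (Mboat2 and Kidins220). The H3K27ac ratio of granulocytes over GMP had a median of 0.33 at Id2, against -0.21 at these 5, while PU.1 in the KO had -0.41 at both. None of these 5 is in a stage class with granulocytes, against 28 of the 39 Id2 enhancers, so the sets also differ in class.

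Of the E protein genes, whose products ID proteins bind, Tcf4 was lower at each later stage and Tcf12 was lowest in granulocytes, where Id2 was highest. Tcf4 expression was 1537 in LSK, 964 in preGM, 387 in GMP and 73.0 in granulocytes, and Tcf12 was 711, 915, 1022 and 87.1. Tcf3 was 207, 189, 106 and 114, so it was level between the last stages. In granulocytes over GMP the log2 ratio was -2.02 for Tcf4 and -3.17 for Tcf12, and 19.7% of genes were at least 2-fold lower. The strongest enhancer of a gene was picked for each assay on its own, so values of different assays may come from different enhancers. At the enhancer strongest in H3K27ac, that mark was 0.86 in granulocytes and 4.43 in GMP for Tcf4, and 1.44 and 10.6 for Tcf12. At the enhancer strongest in H3K4me1, that mark went the other way, with 6.42 in granulocytes and 5.41 in GMP for Tcf4, and 9.89 and 3.84 for Tcf12. Id4 was 14.6 in granulocytes and 15.4 in GMP, and Id3 is not analysed here. In KO over wild type preGM 0 of these 4 genes differed 2-fold in expression or at their strongest enhancer.

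Genes of the BMP, TGF-beta and SMAD pathway, the input to Id1 in many cells, went both ways. Of 24 of 25 listed genes found, 6 were at least 2-fold higher and 2 lower in expression in granulocytes than in GMP, beside 12% and 19.7% of all genes, with a median log2 ratio of 0.04 against -0.08 over all genes. The receptor gene Acvrl1 had 180 in granulocytes and 11.1 in GMP, and the receptor gene Bmpr1a had 177 and 25.4. The BMP mediator Smad1 had 127 in granulocytes and 741 in GMP. In KO over wild type preGM 0 of the 24 were 2-fold different in expression or at their strongest enhancer in any assay. Of 11 of 11 other basic helix-loop-helix genes, Mxd1, a MAX partner that opposes MYC, was 5611 in granulocytes and 143 in GMP, and Myc, the 1 gene of that list at least 2-fold lower, was 118 and 301. In the KO Bhlhe40, a repressor of the same wide family, had the 1 PU.1 call of that list, with 10.8 in KO and 25.6 in wild type at its strongest enhancer, and Mycn the 1 H3K27ac call, with 4.41 in KO and 1.29 in wild type. In the list of 5 C/EBP, PU.1 and Gfi1 genes 3 were found, of which Cebpa and Gfi1 were at least 2-fold lower in granulocytes (38.4 and 165) than in GMP (241 and 844). PU.1 at the strongest Cebpa enhancer was 7.43 in KO and 19.2 in wild type.

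The genes whose 6 expression values followed Id2 most closely, among 4584 genes with enough signal and spread, were Rab2a, Tgds, Vps26b, Cog6 and Msl1, with Pearson's r of log2 values between 0.986 and 0.991. For Id1 they were Gmfg, Nrbp1, BC003266, Ndufs5 and Gps2, with r between 0.997 and 0.999. The 6 values come from 2 sets on different scales, and for Id1 the offset between the sets is the main difference shared, so these are descriptions of 6 columns and not of separate samples.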

How the data were processed

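The labels list 77 mouse samples, 53 ChIP-seq and 24 RNA-seq. Values came from 1 deposited table of 44002 enhancers in build mm9. Per the file headers it gives a position, gene, stage class, bound class and 1 value per group, and the deposited signal was read as linear, since it is never negative and not whole; the sources used here do not say how the authors scaled or pooled libraries. Bowtie2, MACS2, bedtools, STAR, featureCounts and DESeq2 are named in the submitters' processing notes. The depth behind a value is unknown and no counting interval is given. Used were 15 signal columns and 6 expression columns; 11 value columns, undescribed or with no listed sample, were not. CFU-G, CFU-M and monocyte samples were not analysed here.

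Log2 ratios used an added constant, the 25th percentile over that assay's values, kept to 1 significant digit: 0.7 for H3K27ac, 2 for H3K4me1, 0.6 for PU.1, 30 and 70 for the 2 expression sets. A log2 ratio of 1 in size was a call. The wild type preGM columns of the 2 expression sets correlate across genes with r = 0.783, so ratios were taken within a set. No expression value is 0. Alternatives were the constant 4 times smaller or larger, the median of all features subtracted, quantile normalization, division by width, enhancers with at least the median signal, the summed signal, the strongest enhancer and a 1.5-fold call. An alternative counted as moved when it crossed the 2-fold line or differed by more than 1.5-fold. Ratios with no constant for expression were added after seeing the data. Named genes are every Id1 and Id2 enhancer's values, list genes at least 2-fold different (at most 4 per comparison and direction), E protein and ID genes, and the 5 genes most like each member. The members and lists were chosen with earlier results of these data known. The calculation was checked by planting changes well past 2-fold, in both directions, in the deposited wild type preGM signals. Changes near the 2-fold line were not planted. Python 3.11.15, numpy 2.4.6, pandas 2.3.3 and matplotlib 3.10.9 were used.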

Additional observations from a re-analysis of the deposited data

How the results depend on the processing

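For 30 median or single log2 ratios of Id1 and Id2, 216 alternatives were run. A call could be reversed only where the main ratio reached 2-fold. Id2 expression in granulocytes over GMP (2.21) was the only ratio that large, so the 0 reversed calls say nothing of the others. Of the alternatives, 209 gave values within 1.5-fold and on the same side of the 2-fold line, and 7 moved. For PU.1 at Id1 in KO over wild type preGM (-0.81) these were a constant 4 times smaller (-1.10), enhancers with at least the median signal (-1.13), the summed signal (-1.17) and the strongest enhancer (-1.16). For PU.1 at Id1 in preGM over LSK (0.77) it was quantile normalization (0.17), for H3K27ac at Id2 in preGM over LSK (-0.08) the strongest enhancer (0.51), and for Id2 expression in GMP over preGM (0.79) leaving out the constant (1.06). The cause was not tested, except that a smaller constant shrinks ratios less by construction. Signs changed 15 times in 9 of the 30, none with a size above 0.41, which is H3K4me1 at Id1 in granulocytes over GMP (-0.14 at its strongest enhancer). Counts at 2-fold were less steady: 68 of 308 alternatives moved. Restricting to enhancers with at least the median signal gave 1 Id2 call in place of 9 in granulocytes over GMP for each mark, from fewer enhancers. No paired analysis was possible because the table pools the replicates, and for the same reason leaving out replicates was not run. With 1 pooled value per group and unknown depth, no difference here could be set against an error.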
